A study of Homo sapiens with 4 samples.

Results

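The peaks described here lie on the unplaced and unlocalized contigs of the hg38 human assembly. They are the peaks whose sequence name starts with chrUn_ or ends with _random in 4 STARR-seq peak lists. The rule used the name alone and no measured value, and it took 2236 of 270743 peaks on 133 contigs. STARR-seq measures enhancer activity by cloning genomic fragments into the transcribed part of a reporter, where a fragment that acts as an enhancer raises the amount of RNA holding its own sequence. The library held sheared genomic DNA of MDA-MB-231, a triple-negative human breast cancer cell line, and the same line was transfected. The 4 groups were SHP1705 at 10 µM, MG132 at 100 nM, the combination of both drugs at these doses, and the vehicle DMSO, each with RNA taken at 8 h. SHP1705 stabilizes the cryptochrome (CRY) clock repressors and MG132 inhibits the proteasome. All groups shared the cell line, the plasmid library and poly-A selection of the RNA, and reporter transcripts were enriched by PCR across a junction. Each treatment had 1 library and 1 peak list, so differences between treatments have no replicate check and carry no p-value.

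Unlocalized contigs are pieces of the assembly known to belong to a chromosome but with no position on it, and unplaced contigs have no known chromosome. Such pieces are rich in satellite, duplicated and other repeated DNA, which assemblers cannot order. A pair of them hold copies of the ribosomal RNA repeat, which runs in tandem arrays on the short arms of the acrocentric chromosomes. Each repeat carries the 45S gene, whose precursor RNA is cut into the 18S, 5.8S and 28S ribosomal RNAs, followed by a long spacer. RNA polymerase I reads this gene.

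The libraries differed in depth, with 118324303 fragments for SHP1705, 27289266 for MG132, 28331486 for the combination and 29717604 for DMSO. The height of a peak is its pileup, the number of fragments over the summit, and is given below in fpm, fragments per 1000000 fragments of the library. The lowest height that could be called falls with depth, so the SHP1705 list reached lower heights in fpm than the other lists. Its narrowest possible peak was also narrower, at 299 bp against 354 bp for MG132, 355 bp for the combination and 346 bp for DMSO. Values of the SHP1705 list therefore stand apart from the start, and depth and treatment cannot be told apart in it.

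The annotated 45S gene of each ribosomal RNA contig and a 45S gene on chromosome 21 had a peak at the same distance before their start. A short sequence is printed below for the chromosome 21 copy only. Whether the contigs carry it was not tested. On chrUn_GL000220v1, the MG132 and combination lists each held a peak from 1101 to 660 bp before the start of RNA45SN5, the 45S gene of that contig. On chr22_KI270733v1_random, a peak lay at the same distance before RNA45SN4 in both lists. The MG132 and combination peaks before RNA45SN1 on chromosome 21 lay again from 1101 to 660 bp before the gene, at chr21:8432121-8432562. At its end nearest the 45S gene, that interval takes in the first 33 bases of the microRNA gene MIR6724-4 (chr21:8432530-8432621, plus strand). Its hairpin of 92 bases is printed from RefSeq (GRCh38.p14), with the bases inside the peak in capitals.
MIR6724-4: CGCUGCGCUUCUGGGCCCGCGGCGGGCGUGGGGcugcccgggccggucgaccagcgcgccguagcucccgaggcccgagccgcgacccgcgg
Before RNA45SN2 and RNA45SN3, the other copies on chromosome 21, the MG132 peaks were wider, from 1082 to 76 bp and from 1082 to 181 bp before the gene. The combination peaks there ran from 1082 to 641 bp before the gene. Counted from the 45S start, MIR6724-1 (before RNA45SN2) and MIR6724-3 (before RNA45SN3) begin at -673 bp and MIR6724-4 at -692 bp. The combination peaks are shifted by the same amount. The MG132, combination and DMSO peaks before RNA45SN2 and RNA45SN3 thus also took in the start of a microRNA gene, so this overlap was not particular to RNA45SN1. The height of the upstream peak on chrUn_GL000220v1 was 4.87 fpm with MG132, 7.27 with the combination and 6.29 with DMSO. On chr22_KI270733v1_random it was 4.51 with MG132, 7.62 with the combination and 7.30 with DMSO. The SHP1705 list held no peak at this place on either contig or before the 3 45S genes of chromosome 21. The DMSO list held an overlapping peak on both contigs and before RNA45SN2 and RNA45SN3, but not before RNA45SN1. Before the later 18S copy of chrUn_GL000220v1, the MG132 and combination lists each held another peak, at 148295 to 148736. Moved back by the 43972 bp between the 18S starts of this contig, both fell exactly on the peaks before RNA45SN5. DMSO and SHP1705 held no peak there, and no list held a peak at the matching place on chr22_KI270733v1_random.

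The contigs held 486 peaks with SHP1705, 629 with MG132, 621 with the combination and 500 with DMSO. As a share of the list this was 0.549% with SHP1705 (Wilson 95% interval 0.502 to 0.599%), 0.867% with MG132 (0.802 to 0.937%), 1.04% with the combination (0.962 to 1.12%) and 1.003% with DMSO (0.919 to 1.09%). The intervals cover counting error only, since each treatment had 1 library and peaks were treated as independent. The SHP1705 share was the lowest, and with 1 library each the order of the treatments was not tested. The SHP1705 list was also the longest, with 88588 peaks against 49863 with DMSO. With the lists at equal length, the share was 0.598% with SHP1705, 0.724% with MG132, 0.957% with the combination and 1.003% with DMSO.

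Unplaced contigs held 237 peaks with SHP1705, 314 with MG132, 313 with the combination and 260 with DMSO. Unlocalized contigs held 249 with SHP1705, 315 with MG132, 308 with the combination and 240 with DMSO, so both kinds gave near equal parts in every list. Of the 133 contigs with a peak, 93 were unplaced and 40 unlocalized, and 84 had a peak in every list. The unlocalized contigs belong to 12 chromosomes. Those of chromosome 14 held most peaks, at 66 with SHP1705, 69 with MG132, 66 with the combination and 57 with DMSO on 8 contigs. Chromosome 2 followed with 204 peaks over the 4 lists on only 2 contigs, then chromosome 22 with 178 on 9 contigs and chromosome 17 with 136 on 3 contigs. On the contigs of chromosome 22, SHP1705 had 34 peaks, MG132 43 and the combination 51, against 50 for DMSO. The 1 contig of chromosome 16 had 4 peaks with SHP1705, 31 with MG132 and 20 with the combination, against 12 with DMSO.

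The 5 contigs with most peaks held 24.1% of them. Contig lengths were not used here, so counts are not scaled for length. The contig chr14_GL000225v1_random held 37 peaks with SHP1705, 48 with MG132, 40 with the combination and 34 with DMSO. The count on chr2_KI270716v1_random was 30 with SHP1705, 24 with MG132, 33 with the combination and 19 with DMSO. On chr2_KI270715v1_random the 4 lists were nearly level, at 25 with SHP1705, 24 with MG132, 25 with the combination and 24 with DMSO. Other contigs differed more between lists. For chrUn_KI270442v1 the counts were 18 with SHP1705, 20 with MG132, 28 with the combination and 23 with DMSO. For chrUn_GL000216v2 they were 19 with SHP1705, 26 with MG132, 24 with the combination and 17 with DMSO. For chr17_KI270729v1_random they were 18 with SHP1705, 28 with MG132, 21 with the combination and 12 with DMSO. The contigs of the ribosomal RNA genes had level counts. On chrUn_GL000220v1, SHP1705 had 21 peaks and each of MG132, the combination and DMSO had 19. On chr22_KI270733v1_random, SHP1705, MG132 and the combination had 16 each and DMSO had 18. Counts on chrUn_KI270747v1 were 7 with SHP1705, 20 with MG132, 17 with the combination and 16 with DMSO. With chr16_KI270728v1_random, given above, this was one of 19 contigs among the 55 with at least 10 peaks where SHP1705 alone had the fewest, and DMSO alone had the fewest on as many.

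**Figure D1:**
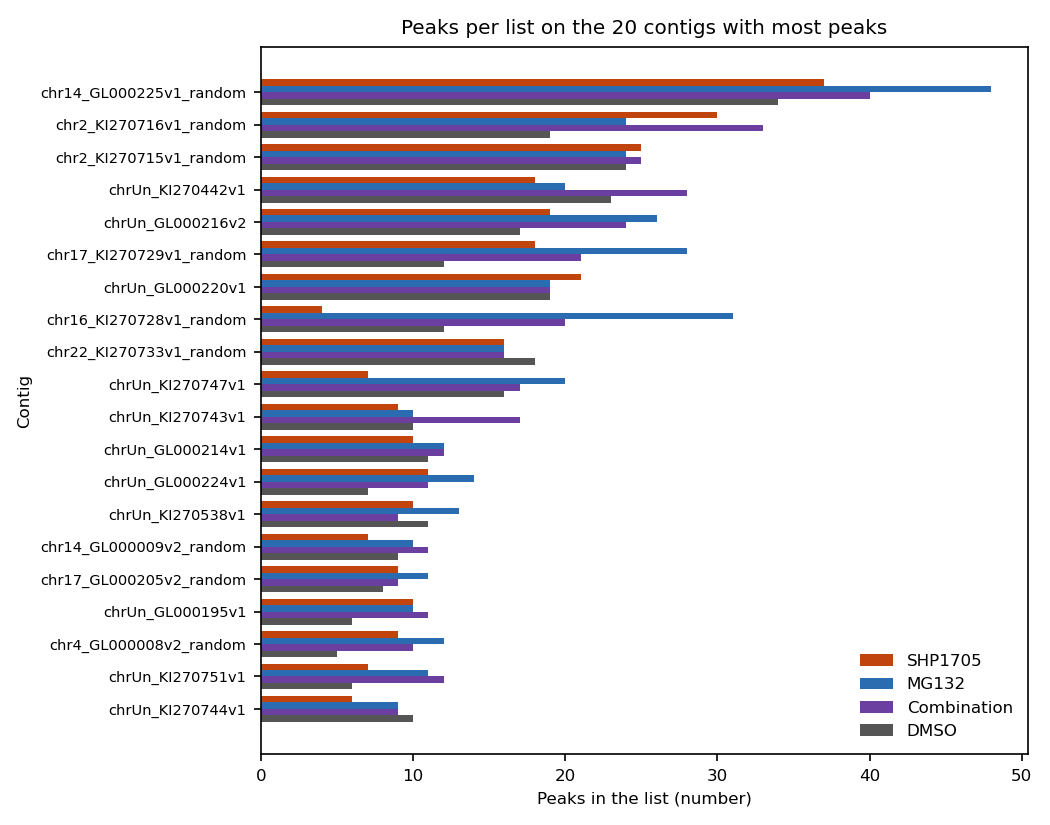
Number of peaks in each list (bars, horizontal axis) on the 20 contigs with most peaks over the 4 lists. SHP1705 has 4 peaks and MG132 has 31 on chr16_KI270728v1_random, while chr2_KI270715v1_random is nearly level at 24 or 25 in every list.

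The other contigs with at least 10 peaks are given by their totals over the 4 lists. There were 46 peaks on chrUn_KI270743v1, 45 on chrUn_GL000214v1, and 43 each on chrUn_GL000224v1 and chrUn_KI270538v1. The count was 37 on 3 contigs, namely chr14_GL000009v2_random, chr17_GL000205v2_random and chrUn_GL000195v1, and chr4_GL000008v2_random and chrUn_KI270751v1 had 36. Totals were 34 on chrUn_KI270744v1, 30 on chrUn_KI270438v1 and chrUn_KI270519v1, 29 on chr5_GL000208v1_random and 27 on chr22_KI270737v1_random. Totals of 24 to 26 were found on chr14_GL000194v1_random (26), chr1_KI270706v1_random, chr1_KI270709v1_random and chrUn_GL000226v1 (25 each), and chr22_KI270739v1_random, chr3_GL000221v1_random and chrUn_GL000219v1 (24 each). On chrUn_GL000226v1 the 25 peaks fell into only 5 merged regions, each held by all 4 lists. By contrast the 24 peaks of chrUn_GL000219v1 fell into 21 regions, none of them held by all lists. The regions of chrUn_GL000226v1 ran with short gaps from 948 to 14952 bp, while the peaks of chrUn_GL000219v1 reached 176371 bp. Overlap between lists was not scaled for this difference in density. There were 23 on chrUn_KI270742v1, 22 on chr15_KI270727v1_random and chr1_KI270712v1_random, and 21 on chrUn_KI270756v1, of which 1 was in the SHP1705 list and 11 in the MG132 list. Totals of 20 were found on chr17_KI270730v1_random, chrUn_GL000218v1 and chrUn_KI270757v1, and on chrUn_GL000218v1 MG132 had 1 peak against 6 for DMSO. Totals of 16 to 19 were found on chr14_KI270722v1_random (19), chr22_KI270734v1_random (18), chrUn_KI270435v1 and chrUn_KI270754v1 (17 each) and chr22_KI270738v1_random (16). The lowest totals were on chr22_KI270731v1_random (14), chr9_KI270719v1_random and chrUn_KI270322v1 (13 each), chrUn_KI270750v1 (12), and chr11_KI270721v1_random, chr14_KI270725v1_random, chrUn_KI270579v1, chrUn_KI270741v1 and chrUn_KI270745v1 (11 each). With 10 each, chr1_KI270711v1_random, chrUn_KI270522v1 and chrUn_KI270589v1 closed the order. The remaining 78 contigs held 293 peaks between them, and 13 contigs had a single peak in all.

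Contig peaks had much the same height as chromosome peaks at the middle of the distribution. Median heights on contigs were 0.955 fpm with SHP1705, 6.05 with MG132, 6.88 with the combination and 7.64 with DMSO. On chromosomes 1 to 22, X and Y they were 0.786 with SHP1705, 5.42 with MG132, 7.02 with the combination and 8.04 with DMSO. The contig median was the higher in SHP1705 and MG132 and the lower in the combination and DMSO, so no common direction was found. The mean difference in log2 medians, contigs minus chromosomes, was 0.08 ± 0.17 (SD, n = 4 libraries; exact paired sign-flip permutation test, two-sided, p = 0.5). With 4 libraries this test cannot give a p below 0.125, and 3 such tests were made.

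The upper tail and the widths differed more. In the tail, the 95th percentile of height was higher on contigs than on chromosomes in each list, with 23.4 and 13.3 fpm in SHP1705, 41.8 and 17.4 in MG132, 46.7 and 20.7 in the combination, and 60.3 and 24.8 in DMSO. Peaks of at least 5 times the median of their own kind (contig or chromosome) in the list made up 9.22% of contig peaks and 2.43% of chromosome peaks in MG132. In the combination the shares were 8.70% on contigs and 1.77% on chromosomes, and in DMSO they were 7% and 2.03%. By this measure SHP1705 had the lower share on contigs, at 11.9% against 14.6% on chromosomes. Peaks at least 1000 bp wide were 10.5% of contig peaks in MG132, 10.8% with the combination and 10.4% with DMSO, against 2.96%, 2.86% and 3.09% of chromosome peaks in these lists. In SHP1705 they were 11.9% on contigs and 15.1% on chromosomes. Median widths on contigs were 456.5 bp in SHP1705, 471 bp in MG132, 463 bp in the combination and 464 bp in DMSO. They exceeded the chromosome medians by 7.5, 38, 29 and 33 bp in the same order of lists. The mean excess was 26.9 ± 13.4 bp (SD, n = 4 libraries, wider on contigs in 4 of 4; exact paired sign-flip permutation test, two-sided, p = 0.125, adjusted 0.188), and this p is the smallest the design allows.

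**Figure D2:**
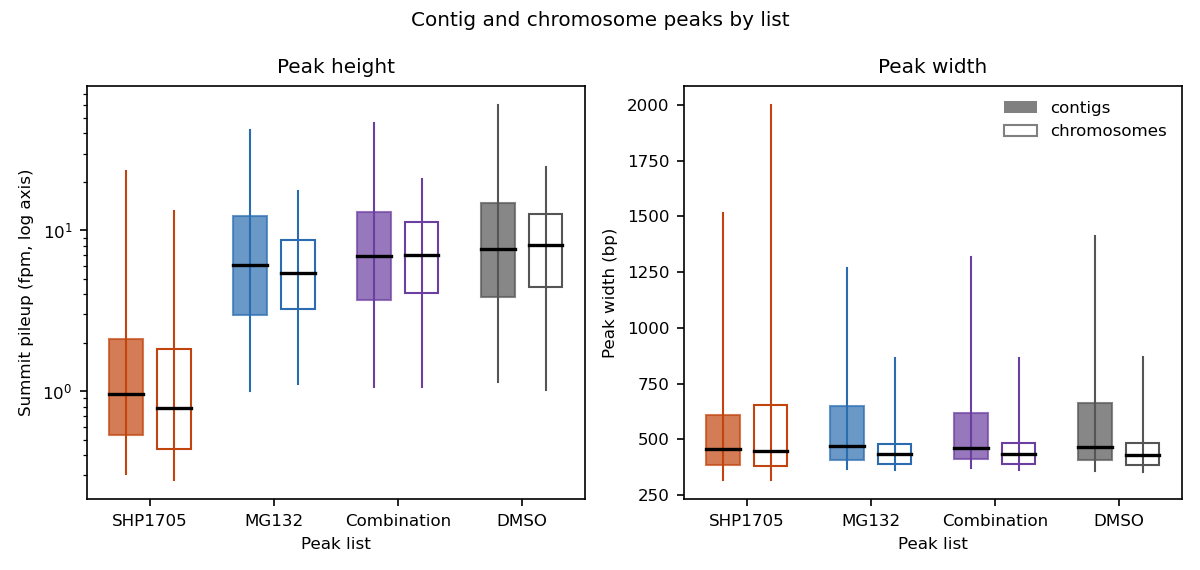
Summit pileup in fpm (left, log axis) and width in bp (right) of contig peaks (filled) and chromosome peaks (open) in each list. Boxes run between percentiles 25 and 75, black lines are medians and thin lines run between percentiles 5 and 95. Contig medians lie near the chromosome medians, and the upper lines of the contigs reach higher in every list for height and in MG132, the combination and DMSO for width.

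The highest contig peaks were on a few unplaced contigs, the same ones in MG132, the combination and DMSO. Peaks were called without a control. Whether such heights reflect enhancer activity or the amount of these sequences in the plasmid library was not tested. The region at chrUn_KI270310v1:17-1163 had 198.4 fpm with SHP1705, 2702 with MG132, 2784 with the combination and 3665 with DMSO. Its peak was the second highest of the whole MG132 list, the third of the combination and the second of DMSO. The region at chrUn_KI270303v1:206-1815 had 123.2 with SHP1705, 1961 with MG132, 1756 with the combination and 1995 with DMSO. The region at chrUn_KI270304v1:440-2022 followed at 73.4 with SHP1705, 1438 with MG132, 1166 with the combination and 1342 with DMSO. These 3 held the highest contig peaks of MG132, the combination and DMSO in the same order. No gene is named here for any of the 3, because the gene table used gives no contig names. The 3 highest contig peaks made up 35.8% of the summed contig heights in MG132, 31.1% with the combination and 42.2% with DMSO. Among the 100 highest peaks of each list, 2 lay on contigs in SHP1705, 12 with MG132, 14 with the combination and 9 with DMSO.

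The next 5 regions complete the 8 that stood highest in all 4 lists, ranked by the lowest of the 4 heights. At chrUn_KI270391v1:138-946 the height was 103.6 with SHP1705, 1108 with MG132, 1052 with the combination and 863.5 with DMSO. At chr1_KI270709v1_random:13572-15218, an unlocalized piece of chromosome 1, it was 62.6 with SHP1705, 688.3 with MG132, 716.1 with the combination and 503.2 with DMSO. At chrUn_KI270412v1:49-706 it was 48.1 with SHP1705, 581.6 with MG132, 611.2 with the combination and 563.7 with DMSO. MG132, the combination and DMSO were within 1.5 times of each other at chrUn_KI270412v1, and SHP1705 was lower than each of the 3 at all 8 regions. At chrUn_KI270383v1:258-1648 the height was 31.6 with SHP1705, 320.9 with MG132, 292.8 with the combination and 180.2 with DMSO. At chrUn_KI270411v1:3-2280 it was 30.5 with SHP1705, 246.1 with MG132, 138.4 with the combination and 286.5 with DMSO. Of these 8 regions, 7 were on unplaced contigs.

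Among contig peaks, the ribosomal RNA genes and their later 18S copies gave the highest of SHP1705 and set it apart from the other lists. The 3 highest ranked only 99, 100 and 102 in the whole SHP1705 list, whose highest chromosome peak reached 3400 fpm. RNA18SN5 on chrUn_GL000220v1 (109078 to 110946) carries the 18S ribosomal RNA of the small subunit. Its peak reached 351.8 fpm with SHP1705, 10.7 with MG132, 8.97 with the combination and 9.19 with DMSO. RNA18SP3, a later 18S copy on the same contig, had 350.7 with SHP1705, 10.0 with MG132, 9.14 with the combination and 8.92 with DMSO. The other contig showed the same contrast. The copies were measured in the same libraries, and how fragments that match several copies were placed is not given, so their agreement is no replicate check. On chr22_KI270733v1_random, RNA18SN4 had 350.1 with SHP1705, 10.9 with MG132, 9.32 with the combination and 9.22 with DMSO. RNA18SP4, its later copy, had 348.0 with SHP1705, 11.0 with MG132, 8.26 with the combination and 9.35 with DMSO. The symbols of RNA18SP3 and RNA18SP4 are those of pseudogenes. The 4 copies differed little within a list, and SHP1705 stood above the other lists at each. The median over the 4 copies in SHP1705 was 38.1 times that in DMSO, while MG132 was 1.17 times and the combination 0.984 times DMSO. On chromosomes, percentile 95 of the log2 ratio of SHP1705 to DMSO was 5.30 over regions in both lists. The median over the 4 copies gave 5.25, so some chromosome regions rose as much. The 3 copies of the 18S gene on chromosome 21 gave 347.0 to 350.2 fpm with SHP1705, 10.6 to 11.5 with MG132, 8.54 to 9.18 with the combination and 9.05 to 9.86 with DMSO.

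The 28S gene, whose RNA is the large one of the large subunit, also had SHP1705 highest. RNA28SN4 reached 287.6 fpm with SHP1705, 6.23 with MG132, 4.66 with the combination and 5.11 with DMSO. RNA28SN5 reached 150.8 with SHP1705, 5.13 with MG132, 4.80 with the combination and 4.71 with DMSO. Peaks covered 56.9 to 57.6% of the 28S genes on the contigs in SHP1705 and 33.1 to 47.6% with DMSO, in 2 or 3 separate pieces in each of these lists. No list had a peak over the 5.8S genes of the contigs, nor in the leading part of the 45S gene before 18S. Only 1 peak lay in the 45S genes outside 18S and 28S, over the last bases of RNA45SN4 and beyond, in MG132, with 4.51 fpm.

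Beyond the annotated genes, the contigs held further peaks at the place where a 28S gene would follow the later 18S copy. The 18S copies of chrUn_GL000220v1 start 43972 bp apart and those of chr22_KI270733v1_random 45081 bp apart. Moved back by these distances, 6 SHP1705 peaks fell on the annotated 28S genes, with heights of 92.1 to 151.3 fpm. The same places held 2 peaks in MG132 of 5.46 and 6.05, 3 with the combination of 3.42 to 5.08, and 4 with DMSO of 4.14 to 5.05. The spacer and flanks, the rest of both contigs, went the other way, with SHP1705 lowest, as it also was in the median over chromosome peaks. There SHP1705 had 22 peaks with a median of 0.866 and a highest value of 5.67 fpm. MG132 had 24 with a median of 4.97 and a highest value of 24.4, the combination 24 with 6.51 and 15.99, and DMSO 24 with 6.80 and 23.2. Within MG132, the combination and DMSO, heights over the mature genes and later 18S copies overlapped those of the spacer. Medians over these genes and copies were 8.14, 6.53 and 5.11 in that order. In SHP1705 every peak over 18S or 28S stood above every spacer peak. How fragments that match several copies were placed is not given in the sources used here, so heights of single copies are uncertain. Whether these fragments came from reporter RNA was not tested.

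**Figure D3:**
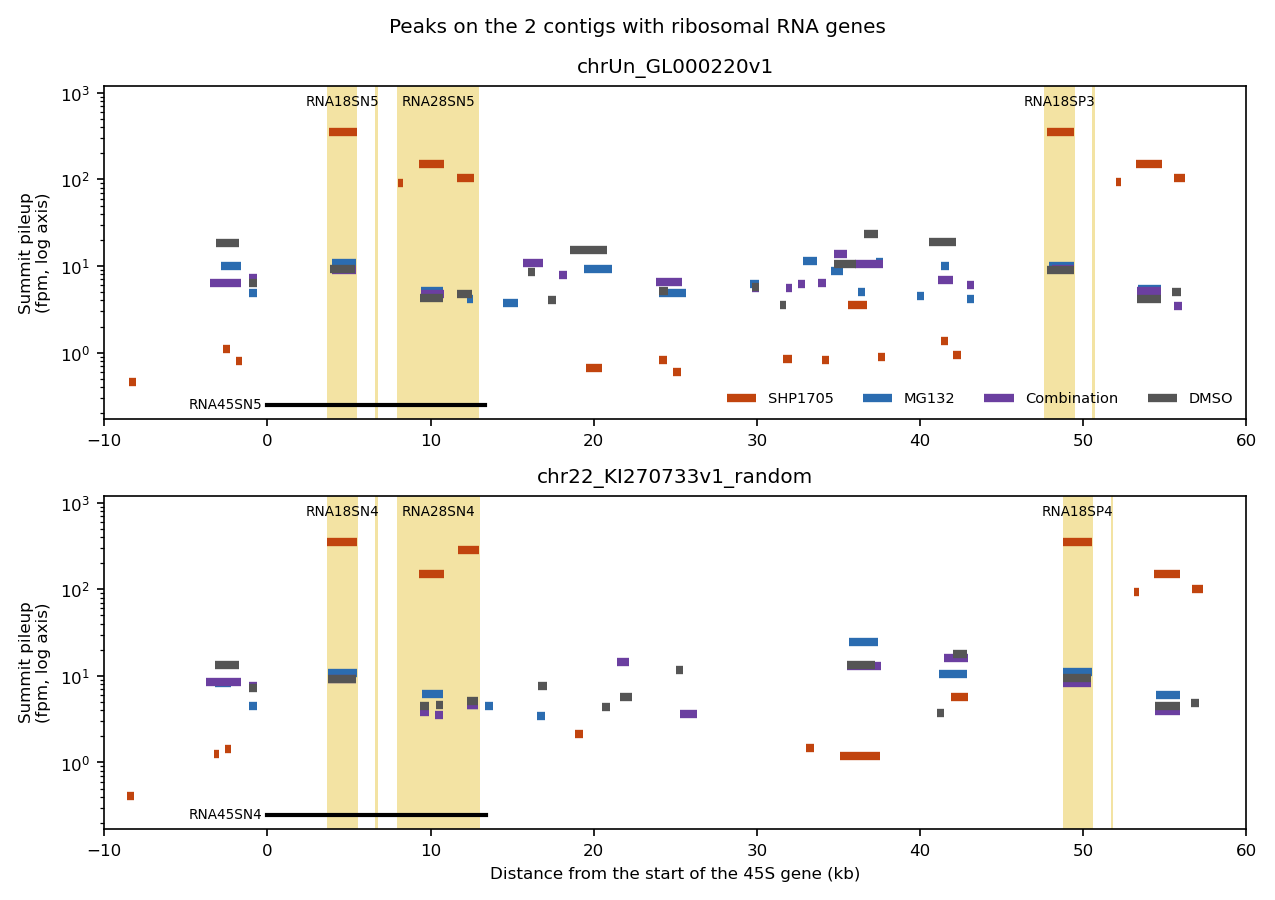
Peaks on both contigs with ribosomal RNA genes, drawn from end to end at their distance from the start of the 45S gene (kb) and at their summit pileup in fpm (log axis), with colours for lists. Shaded bands are annotated 18S, 5.8S and 28S genes and the black bar is the 45S gene; SHP1705 peaks over 18S sit near 350 fpm while its spacer peaks stay at or below 5.67.

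Contig peaks were met by peaks of other lists more often than chromosome peaks were. Median widths were also larger on contigs in each list, and the shares were not scaled for width or for the density of peaks. At least 1 bp of overlap with at least 1 other list was found for 51.6% of SHP1705 contig peaks (Wilson 95% interval 47.2 to 56.1%) and 18.5% of its chromosome peaks. Over all its peaks the share was 18.6%. In MG132 it was 46.7% (42.9 to 50.6%) on contigs and 23.2% on chromosomes, with 23.2% over all peaks. The contig share was the higher in both of these lists. In the combination it was 48.8% (44.9 to 52.7%) on contigs and 25.5% on chromosomes, with 25.5% over all peaks. In DMSO it was 54.6% (50.2 to 58.9%) on contigs and 29.1% on chromosomes, with 29.1% over all peaks. The mean difference was 26.4 ± 4.62 percentage points (SD, n = 4 libraries, higher on contigs in 4 of 4; exact paired sign-flip permutation test, two-sided, p = 0.125, adjusted 0.188). This p is again the smallest possible. The 4 values are not independent, since an overlap between 2 lists counts in both.

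Peaks met by every other list were 21.6% of contig peaks in SHP1705, 16.1% for MG132, 16.9% for the combination and 21% for DMSO. Over all peaks of the lists these shares were 5.25%, 6.41%, 7.79% and 9.32% in the same order. Taken by pairs, MG132 met 34.4% of SHP1705 contig peaks (11.7% of all its peaks), the combination 37.2% (10.4% of all) and DMSO 34.0% (10.1% of all). SHP1705 met 26.1% of MG132 contig peaks (14.3% of all), the combination 33.4% (13.4% of all) and DMSO 30.8% (12.7% of all). Every contig share so far was above that of its whole list. SHP1705 met 28.3% of combination contig peaks (15.4% of all), MG132 34.1% (16.3% of all) and DMSO 31.7% (14.2% of all). SHP1705 met 31.6% of DMSO contig peaks (17.9% of all), while MG132 and the combination met 38.8% each (18.5% and 17% of all). Within the contig peaks of MG132, the combination and DMSO, SHP1705 was the list that met fewest, although it was the longest.

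**Figure D4:**
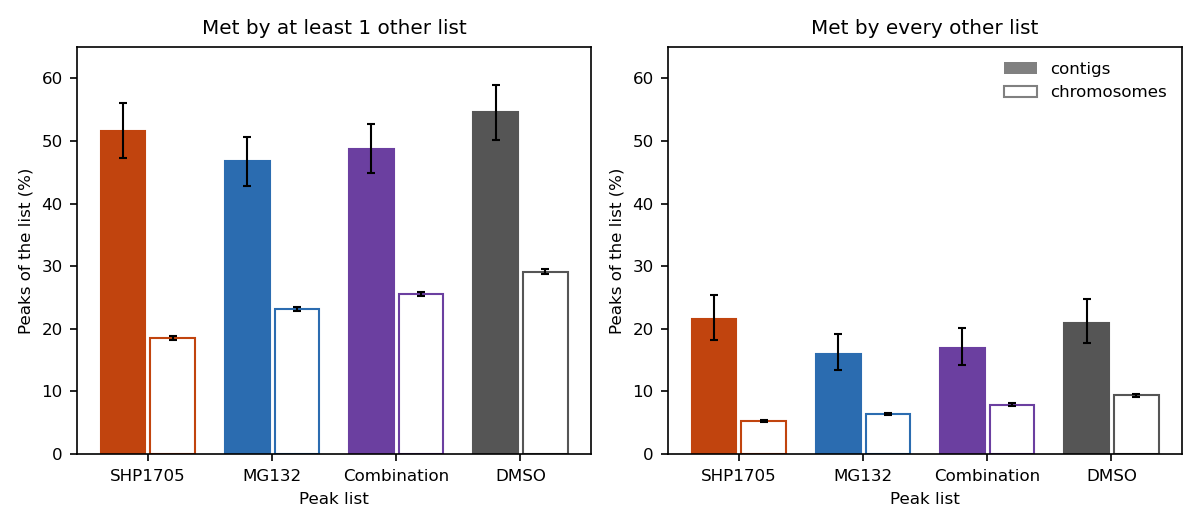
Share of each list's peaks (%) met by at least 1 other list (left) and by every other list (right), for contig peaks (filled) and chromosome peaks (open), with Wilson 95% intervals. Contig shares lie between 46.7 and 54.6% on the left, above the chromosome shares of 18.5 to 29.1%.

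The excess on contigs depended on height. When contig peaks were sorted into 4 height classes by the quartiles of chromosome heights in their list, the top class was met in 74.1% of cases on contigs and 29.8% on chromosomes in SHP1705. In MG132 the top class was met in 70.4% on contigs and 31.2% on chromosomes. In the combination it was 68.6% on contigs and 30.5% on chromosomes, and in DMSO 74.8% and 33.7%. In the lowest class, contig peaks were met no more often than chromosome peaks in 3 lists. The shares there were 24.9% on contigs and 27.0% on chromosomes in MG132, 31.1% and 33.2% for the combination, and 38.7% and 39.4% for DMSO. In SHP1705 the lowest class kept a gap, with 31.4% on contigs and 10.5% on chromosomes. Unplaced contigs had higher shares met than unlocalized ones in each list, from 52.7 to 59.2% against 40.3 to 49.6%, although the Wilson intervals of both kinds overlapped in SHP1705, the combination and DMSO. Contigs whose furthest peak ended before 10000 bp numbered 57 and held 181 peaks. Without them, 49.4% of contig peaks were met in SHP1705, 43.9% for MG132, 46.3% for the combination and 51.8% for DMSO.

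Merged over the lists, contig peaks formed 1504 regions, of 232060 in all. Of these, 1115 held a peak in 1 list, or 74.1% on contigs against 89.5% of regions on chromosomes. Another 202 held peaks in 2 lists (13.4% on contigs, 6.77% on chromosomes), 80 in 3 lists (5.32% and 1.67%) and 107 in all 4 lists. The 107 were 7.11% of contig regions (Wilson 95% interval 5.92 to 8.53%), against 2.05% of all regions and 2.05% of those on chromosomes. Contig regions in all 4 lists were also wide, with a median of 1419 bp against 1002 bp on chromosomes. They lay on 46 contigs, 68 on unplaced and 39 on unlocalized ones, and 16 were on the ribosomal RNA contigs. The contig chr14_GL000225v1_random had 10 of them, the ribosomal RNA contigs 8 each, and chrUn_GL000216v2 and chrUn_KI270538v1 6 each.

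The median height of these 107 regions was 2.56 fpm with SHP1705, 19.5 with MG132, 16.8 with the combination and 17.1 with DMSO. SHP1705 was the lowest of the 4 lists in 90 of them and the highest in 9, and all 9 lay on the ribosomal RNA contigs. The highest list was MG132 in 29, the combination in 33 and DMSO in 36. These counts were not made for chromosome regions, so they are not shown to be particular to contigs. On chromosomes, SHP1705 was at least 2-fold higher than DMSO in 24.6% of the regions in both lists and at least 2-fold lower in 69.9%. Regions in SHP1705 alone numbered 235, or 15.6% of contig regions against 31.3% of chromosome regions. The other lists were nearer the chromosomes. Regions in MG132 alone numbered 335 (22.3% on contigs, 24.0% on chromosomes), those in the combination alone 318 (21.1% and 19.1%) and those in DMSO alone 227 (15.1% and 15.2%). Regions in MG132, the combination and DMSO but not in SHP1705 numbered 34, or 2.26% on contigs against 0.499% on chromosomes. Those in MG132 and the combination alone numbered 49, or 3.26% on contigs against 1.19% on chromosomes. Of the 107 regions in all 4 lists, 3 were past 2-fold in opposite directions in SHP1705 against DMSO and in the combination against MG132, or 2.80% against 3.75% over all regions in 4 lists.

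**Figure D5:**
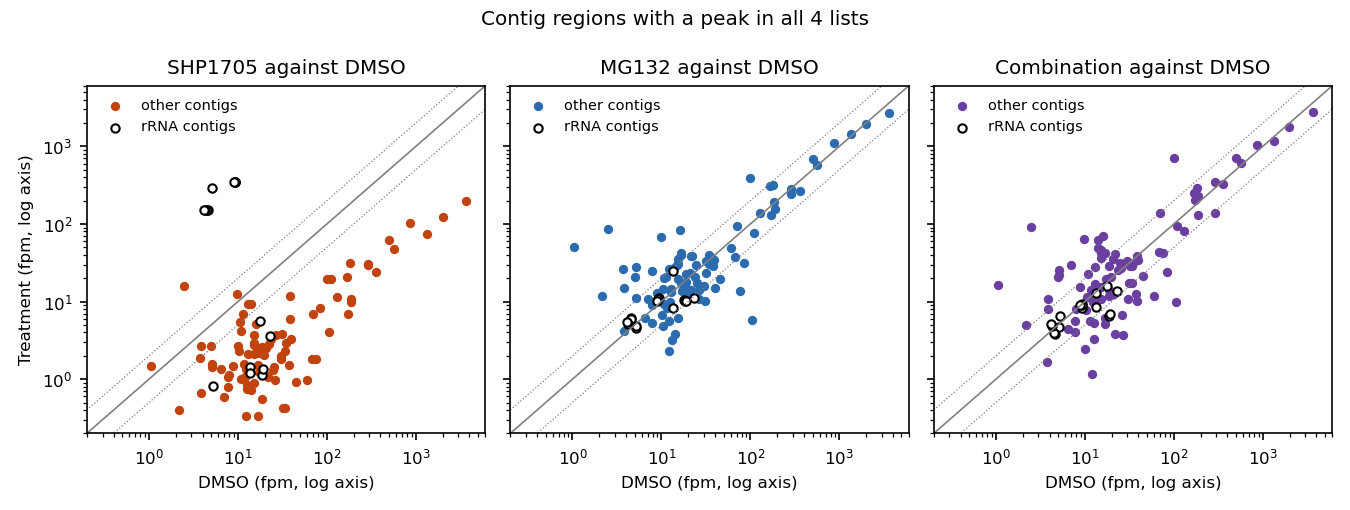
Height in fpm in SHP1705, MG132 and the combination (vertical, log axis) against DMSO (horizontal, log axis) for the 107 contig regions with a peak in all 4 lists. Solid lines mark equal heights and dotted lines 2-fold differences; open circles are the ribosomal RNA contigs, 9 of whose regions are highest in SHP1705.

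Heights were then compared region by region, among contig regions held by both lists, with 2-fold as the limit for a call. Regions without a peak in one of the lists are left out of such ratios. In SHP1705 against DMSO, 14 of 159 regions were at least 2-fold higher and 131 at least 2-fold lower, against 24.5% higher and 69.9% lower over all regions. The median log2 ratio on contigs was -3.01, and on chromosomes it was -2.78, so most heights were lower in fpm in the deep SHP1705 library. Relative to the chromosome median, 40 contig regions were higher and 48 lower, against 34.8% higher and 23.6% lower over all regions. Of the 14 higher in fpm, 12 lay on the ribosomal RNA contigs. Without these contigs, 2 of 138 regions were higher and 122 lower.

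The 3 regions with the highest ratio of SHP1705 to DMSO were ribosomal RNA genes. The part of RNA28SN4 at chr22_KI270733v1_random:133950-135259 had 287.6 fpm with SHP1705 and 5.11 with DMSO, a 56.2-fold difference. The regions of RNA18SP3 and RNA18SN5 on chrUn_GL000220v1 followed, at 39.3-fold and 38.3-fold. At the low end, chrUn_KI270538v1:80806-81643 had 0.423 fpm with SHP1705 and 34.2 with DMSO. Its neighbour at chrUn_KI270538v1:83592-84316 had 0.431 with SHP1705 and 31.7 with DMSO, and chrUn_KI270744v1:109234-112454 had 0.972 with SHP1705 and 59.9 with DMSO. Relative to the chromosome median these 3 were still lower, by log2 values of -3.56, -3.42 and -3.16.

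In MG132 against DMSO, 36 of 192 contig regions were at least 2-fold higher and 35 at least 2-fold lower, against 13.5% higher and 16.6% lower over all regions. The median log2 ratio was -0.04 on contigs and 0.01 on chromosomes. Regions past the limit lay in both directions in near equal number, and none of the 36 higher ones lay on the ribosomal RNA contigs. Relative to the chromosome median the counts were 35 higher and 36 lower, against 13.3% and 16.7% over all regions. The highest ratio was at chrUn_KI270538v1:73326-73975, at 51.0 fpm with MG132 and 1.04 with DMSO. That place had 1.47 with SHP1705 and 16.3 with the combination. At chrUn_KI270587v1:125-743, MG132 had 87.4 and DMSO 2.49, and the combination was close to MG132 there with 90.5. The third, chr14_KI270723v1_random:36912-38001, had 20.2 with MG132 and 1.45 with DMSO, and no peak in the other two lists. The lowest ratio was at chrUn_KI270322v1:23-1996, at 5.79 fpm with MG132 and 104.9 with DMSO. SHP1705 had 4.03 and the combination 9.95 at this region. The SHP1705 value was above the median of its own contig peaks, 0.955 fpm, and the MG132 value was just below the median of its own, 6.05 fpm. At chrUn_KI270751v1:38967-39883, MG132 had 1.54 and DMSO 14.6, and at chrUn_KI270442v1:159419-160092 MG132 had 2.89 and DMSO 25.9.

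In the combination against DMSO, 42 of 192 contig regions were at least 2-fold higher and 43 at least 2-fold lower, against 13.4% higher and 15.9% lower over all regions. The median log2 ratio was -0.02 on contigs and -0.11 on chromosomes. Relative to the chromosome median, 45 were higher and 35 lower, against 15% higher and 14% lower over all regions. The region at chrUn_KI270587v1:125-743, named above, had the highest ratio, at 36.4-fold. At chrUn_KI270442v1:112658-113438 the combination had 35.2 fpm and DMSO 1.48, at 1.34 with SHP1705. The third was again chrUn_KI270538v1:73326-73975, at 16.3 with the combination. The lowest ratio was at chr5_GL000208v1_random:81139-81665, at 0.671 fpm with the combination and 23.4 with DMSO. Its combination peak rested on 19 fragments. At chrUn_KI270591v1:157-893 the combination had 1.09 and DMSO 29.1, and at chr22_KI270739v1_random:10689-11676 the combination had 0.459 from 13 fragments and DMSO 5.82. The 3 comparisons with DMSO share its 1 library, so a region that was high or low in DMSO enters all of them.

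Set against single drugs, the combination was close to MG132 in the middle of the distribution and above SHP1705 in fpm. In the combination against MG132, 31 of 207 contig regions were at least 2-fold higher and 34 at least 2-fold lower, against 15.4% higher and 13.7% lower over all regions. Relative to the chromosome median, which was -0.07 on the log2 scale, 34 were higher and 32 lower, against 16.7% and 12.6% over all regions. These shares of 15.0 and 16.4% in fpm were near those of all regions. The highest ratios were at chrUn_KI270589v1:1092-1906, at 16.7 fpm with the combination and 0.770 with MG132, and at chrUn_KI270320v1:2031-3641, with 37.3 and 2.64. The third, chrUn_KI270743v1:162043-162774, had 49.3 with the combination and 3.85 with MG132. The lowest ratio was at chr1_KI270708v1_random:78034-79159, at 0.6 with the combination from 17 fragments and 43.8 with MG132. At chrUn_KI270743v1:155177-156931 the combination had 1.66 and MG132 26.4, and at chr14_GL000225v1_random:97277-98504 the combination had 3.78 and MG132 39.0. The contig chrUn_KI270743v1 thus held extremes of both directions, a few kb apart.

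In the combination against SHP1705, 154 of 174 contig regions were at least 2-fold higher and 11 at least 2-fold lower, against 72% higher and 22% lower over all regions. Relative to the chromosome median of 2.83 on the log2 scale, 48 were higher and 40 lower, against 21% higher and 33.8% lower over all regions. Of the 11 lower in fpm, 10 lay on the ribosomal RNA contigs. The 3 lowest ratios were on chr22_KI270733v1_random, at the parts of RNA28SN4 from 133950 and from 131543 and at RNA18SP4. The 28S part from 131543 had 3.78 fpm with the combination and 149.4 with SHP1705. The highest ratios were at chrUn_KI270442v1:94332-95208, at 70.0 with the combination and 0.634 with SHP1705, at chrUn_KI270743v1:162043-162774 with 49.3 and 0.727, and at chrUn_KI270538v1:83592-84316 with 28.6 and 0.431. At the first of these, MG132 had 21.1 and DMSO had no peak.

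Across contig regions held by both lists, log heights went together between MG132 and the combination (Pearson r 0.79, n = 207 regions), MG132 and DMSO (0.78, n = 192) and the combination and DMSO (0.74, n = 192). These are descriptions over regions of single libraries, which share the plasmid library and its coverage. SHP1705 gave 0.45 with MG132 (n = 160), 0.46 with the combination (n = 174) and 0.37 with DMSO (n = 159). Without the ribosomal RNA contigs, the values of SHP1705 were 0.76 with MG132 (n = 142), 0.77 with the combination (n = 155) and 0.72 with DMSO (n = 138). On chromosomes, with no regions left out, the values for SHP1705 were -0.17, -0.21 and -0.22. The contig values on the same footing are the 0.45, 0.46 and 0.37 above.

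Some contig peaks were tall and yet met no peak of another list. In SHP1705 the 2 highest such peaks were pieces at the 28S place of the later ribosomal RNA copies, chrUn_GL000220v1:157412-157721 with 92.3 and chr22_KI270733v1_random:175385-175683 with 92.1. In MG132 they were at chrUn_KI270507v1:4819-5196, with 76.6, and chrUn_KI270442v1:100481-100934, with 59.5. In the combination they were at chr14_GL000225v1_random:193077-193776, with 50.4, and chrUn_KI270366v1:138-570, with 48.9. In DMSO the highest was at chrUn_KI270538v1:32890-33837, with 161.1 fpm over 948 bp, followed by chr1_KI270709v1_random:12385-12831 with 69.6. The MG132 peak on chrUn_KI270507v1 was one of 2 peaks of that contig over the 4 lists, and chrUn_KI270366v1 also had 2. The fold over local background was only 1.56 and 1.43 for the SHP1705 peaks, in the order given. It was 1.62 for the DMSO peak on chr1_KI270709v1_random, and 10.3 to 27.1 for the other peaks named here.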

How the data were processed

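Peak lists of 4 libraries were used, 1 per treatment. The submitters' processing notes name the hg38 build and the tools Bowtie2, FastQC, MACS2 and Trimmomatic, with no settings. The caller was MACS 2.2.6, per the file headers. It ran on one library at a time without a control, kept duplicates, took local background over 10000 bp and stopped at a q of 0.01. The authors deposited a signal per peak, the summit pileup in fragments, not scaled for depth. The authors also deposited −log10 p and −log10 q values and a ratio, the fold of the pileup over local background. These serve to filter within a list, and the fold is also given for the tall peaks that met no other list.

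Pileups were divided by the fragments in the header and multiplied by 1000000. Peaks of the 4 lists that shared at least 1 bp were merged into regions, and a region's height in a list is its highest peak. Regions for the ratios needed a peak in both lists. Shares carry Wilson 95% intervals. Contigs and chromosomes were compared by an exact sign-flip permutation test over the 4 libraries, with Benjamini-Hochberg adjustment over 3 tests. Python 3.11.15, pandas 2.3.3, numpy 2.4.6 and scipy 1.17.1 were used, and merging and sharing were tested on simulated data.

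Contigs were named where they had at least 10 peaks over the 4 lists. Also named were the 3 highest contig peaks of each list, the 8 highest regions in all 4 lists, and the 3 largest ratios per direction. The 2 highest peaks per list that met no other list complete the rule, with the ribosomal RNA genes. Gene positions came from RefSeq GRCh38.p14. Its table gives no contig names, so the ribosomal RNA genes were set on the 2 contigs from knowledge of the assembly. The 4 18S copies so placed each overlapped a peak in every list. This overlap comes from the same data and is no check of the placement, which was not tested. No genome sequence was used. The members, rules and lists were chosen with earlier results of these data known. The comparison of the later ribosomal RNA copies was chosen after seeing the data.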

Additional observations from a re-analysis of the deposited data

Results flagged for a closer look

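Of the 107 contig regions in all 4 lists, 3 moved in opposite directions, past 2-fold under both scalings, in SHP1705 against DMSO and in the combination against MG132. That is 2.80% of them, against 3.75% over all 4749 regions in 4 lists, so the count is no higher than over all regions. Both contrasts add SHP1705, without and with MG132. The gap is the first log2 ratio minus the second, each contrast rests on 2 libraries, and the difference was not tested. At chrUn_GL000224v1:330-2709 the gap was -5.13. Its height was 1.83 fpm with SHP1705 and 30.1 with DMSO, and 33.8 with the combination and 15.8 with MG132. At chrUn_KI270442v1:139339-140198 the gap was -7.02, at 1.81 with SHP1705 and 76.2 with DMSO, and 42.4 with the combination and 13.7 with MG132. At chrUn_KI270743v1:162043-162774 the gap was -7.96, at 0.727 with SHP1705 and 14.1 with DMSO, and 49.3 with the combination and 3.85 with MG132. Relative to chromosomes, the SHP1705 ratios were -1.26, -2.62 and -1.50 on the log2 scale in the same order, and those of the combination 1.17, 1.70 and 3.75.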

How the results depend on the processing

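Of 113 recomputed values, 84 stayed within their interval or within 1.5 times, and 29 moved. At equal list length, the share on contigs was 0.724% for MG132 and 0.957% for the combination. Shares met by another list are given for contigs, with chromosomes in parentheses. At equal length they were 58.1% (20.6%) for SHP1705 and 46% (22.6%) for DMSO, and 71 regions, 6.36% (1.34%), were in all 4 lists. With a reciprocal overlap of 50% they were 36.2% (12.2%) for SHP1705, 36.9% (17.1%) for MG132, 37.2% (19.1%) for the combination and 42.6% (22.2%) for DMSO, and 52 DMSO contig peaks, 10.4% (5.90%), were met by every other list. With the summit inside a peak of the other list they were 44.9% (14.8%), 41.0% (20.2%), 42.0% (22.4%) and 47.2% (25.8%) in this order. Without the SHP1705 list, chosen after seeing the data, they were 42.3% (18.03%) for MG132, 42.8% (20.8%) for the combination and 49.6% (23.9%) for DMSO. Relative to chromosomes, SHP1705 against DMSO gave 40 regions higher and 48 lower, and the combination against SHP1705 gave 48 higher and 40 lower. Without the ribosomal RNA contigs, chosen after seeing the data, 2 regions were higher in SHP1705 than in DMSO and 1 was lower in the combination than in SHP1705. At a 4-fold limit, which calls fewer regions by construction, MG132 against DMSO gave 14 higher and 12 lower, the combination against DMSO 17 and 13, and the combination against MG132 11 and 12. For the other changes the cause was not tested. Libraries could not be paired between treatments because the labels carry no replicate numbers and each treatment had 1 library. No replicate could be left out either. A region without a peak in a list is not shown to be inactive there, and whether its depth sufficed was not tested.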
